A study of Mus musculus with 8 samples.

Results

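Coenzyme Q synthesis was followed here through 10 genes, Pdss1, Coq2, Coq3, Coq4, Coq5, Coq6, Coq7, Coq9, Coq10a and Coq10b, chosen by symbol because their products build or bind coenzyme Q. All 10 were found among the 23372 genes of the count table. The data are RNA-seq libraries of brown adipose tissue, from mice of 10 weeks on a C57BL/6 N background. In the knockout group floxed Lsd1 (gene symbol Kdm1a, a histone demethylase) was deleted with Cre recombinase under the promoter of Ucp1, a gene of brown fat cells. The control group was labelled as Lsd1 floxed and its labels name no Cre, so the deletion and the transgene cannot be told apart. Controls were replicates 511, 514, 517 and 518, and knockouts were replicates 512, 513, 515 and 516, with 1 library for each, 8 in all and 4 to a group. Nothing states how the animals were related, so p-values measure the spread between these libraries.

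Coenzyme Q, or ubiquinone, is a lipid of the inner mitochondrial membrane that carries electrons from several dehydrogenases to complex III. It consists of a benzoquinone ring, derived from tyrosine, and a long isoprenoid tail made from products of the mevalonate pathway. The tail is made by the PDSS1 and PDSS2 proteins and joined to the ring precursor by COQ2. The remaining enzymes modify the ring at the matrix side of the inner membrane, where several of them associate in a complex. Brown fat is rich in mitochondria and oxidises fatty acids, glycerol phosphate and succinate through this carrier.

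The libraries held 23683936 to 28570627 counts over genes. Kdm1a was lower in each knockout library than in any control library, with 35.4 ± 1.52 CPM against 13.1 ± 0.711 CPM (SD, n = 4 each; CPM are counts scaled to library size with TMM factors). Of the 12 brown adipocyte markers none was at 0 in any library. They summed to between 19183 and 25697 CPM in controls and between 12867 and 14515 CPM in knockouts. By edgeR's quasi-likelihood test at an adjusted p under 0.05, 7 of the 12 passed as lower, 0 as higher and 5 did not pass. Among all genes tested, 18.9% passed as lower and 15.4% as higher. Most of the lower sum lay in Fabp4, a fatty acid binding protein gene (10003 CPM in controls and 6024 CPM in knockouts), and Ucp1 (4481 and 1377 CPM), while Adipoq did not pass (1375 and 1221 CPM). The 15 skeletal muscle markers also differed between the groups, at 328 to 7889 CPM in controls against 8796 to 19594 CPM in knockouts, and none was at 0. All 15 had a log2 fold change above 0, and 2 of them passed as higher, a count near the 15.4% of all genes. Of 8 macrophage markers 4 passed as higher (sums of 105 to 192 CPM in controls and 186 to 279 CPM in knockouts). Of 8 endothelial markers 1 passed as higher, also near that share of all genes, and of 8 fibroblast markers 0 passed. All 8 macrophage and all 8 fibroblast markers had a log2 fold change above 0 (medians 0.56 and 0.41). Of the 8 endothelial markers 3 were below 0, as were 51.3% of all genes. These tissues were sequenced in bulk, so fewer cells of a type and less RNA per cell cannot be told apart.

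The coenzyme Q genes were lower in knockout tissue. By edgeR's quasi-likelihood test over all genes, at an adjusted p under 0.05, 7 of the 10 fell, 0 rose and 3 did not pass. All 10 passed the filter on low counts. Among all 14178 genes tested, 18.9% were called lower and 15.4% higher. The same 7 genes had no overlap between the groups, against 19.7% of all genes with no overlap and lower knockout values. The median log2 fold change of the 10 genes was -0.44 (knockout over control), beside -0.01 over all genes tested. Changes were moderate, with fitted knockout levels between 62.3% (Coq3) and 89.7% (Coq4) of control.

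This direction depended in part on the scaling between libraries. With library sizes alone in place of TMM factors, 4 of the 10 were called lower (Coq3, Coq7, Coq9 and Pdss1) beside 6.56% of all genes, and 8 of the 10 had a log2 fold change below 0, as had 29.7% of all genes (with TMM factors, 10 of the 10 and 51.3%). That scaling raised the log2 fold changes of all genes by a median of 0.198. The median of the 10 genes lay 0.426 below that of all genes with library sizes alone and 0.424 below it with TMM factors. When a score of the muscle markers (their mean centred log2 CPM) entered the fit, 6 of the 10 were called lower, beside 13% of all genes, and the median was -0.40.

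**Figure D1:**
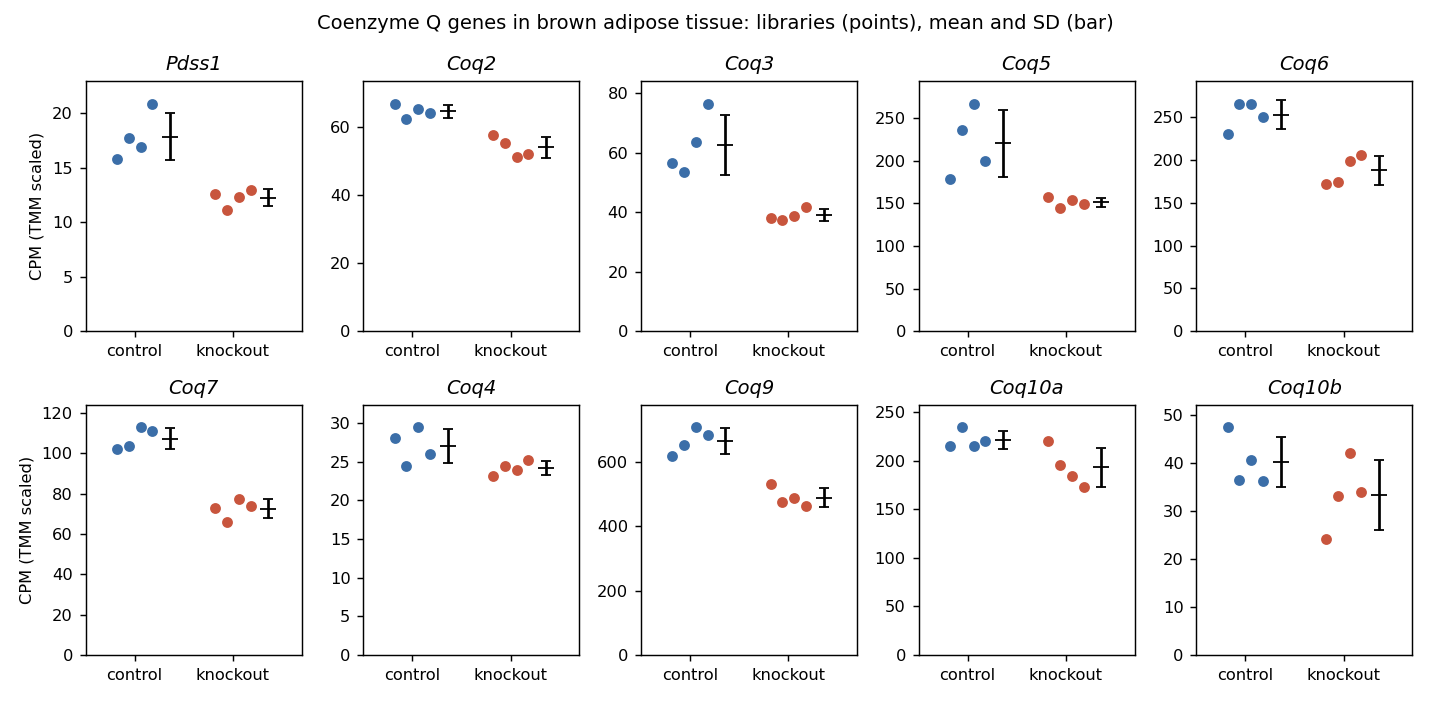
Expression of the 10 coenzyme Q genes in CPM (vertical axes, each from 0), with 1 point per library, blue for the 4 control and red for the 4 knockout libraries, and the mean and SD as black bars. The groups are apart for Pdss1, Coq2, Coq3, Coq5, Coq6, Coq7 and Coq9, and overlap for Coq4, Coq10a and Coq10b.

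The genes for the tail came first in the pathway order. Pdss1 (chromosome 2, 22895522 to 22940259, plus strand, mm10) encodes a subunit of the enzyme that builds the isoprenoid tail. Its levels were 15.8, 17.8, 17.0 and 20.9 CPM in control replicates 511, 514, 517 and 518 and 12.6, 11.1, 12.3 and 13.0 CPM in knockout replicates 512, 513, 515 and 516. Each knockout library was below each control library, and control 518 stood highest. Pdss1 fell by 0.54 on the log2 scale (SE 0.107, edgeR adjusted p = 0.0053). In GENCODE models 17.2% of its exon bases lie opposite exons of Abi1 and A130006I12Rik, and counting without strand could not separate those reads.

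Coq2 (chromosome 5, 100654726 to 100674256, minus strand) encodes the prenyltransferase that attaches the tail to the ring precursor. It was at 67.0, 62.4, 65.5 and 64.3 CPM in the controls and at 57.8, 55.5, 51.2 and 52.1 CPM in the knockouts, in the same order of replicates. The groups did not overlap, and the control libraries varied little, with a coefficient of variation of 2.98%. Coq2 fell by 0.26 (SE 0.0632, edgeR adjusted p = 0.0133), the smallest of the 7 called changes. The call ended with upper quartile factors (log2 fold change -0.16, edgeR adjusted p = 0.0823) and with library sizes alone (-0.06, edgeR adjusted p = 0.497).

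Coq3, Coq5, Coq6 and Coq7, which encode enzymes that modify the ring, all fell. Coq3 (chromosome 4, 21879675 to 21912126, plus strand) encodes the O-methyltransferase of the ring. It was at 56.8, 53.7, 63.7 and 76.5 CPM in the controls and at 38.0, 37.3, 38.9 and 41.8 CPM in the knockouts. Control 518 was high among the controls, and the lowest control library was still above the highest knockout library. Coq3 had the largest fall of the 10 genes, by 0.68 (SE 0.11, edgeR adjusted p = 0.00206).

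Coq5 (chromosome 5, 115279702 to 115296972, plus strand) encodes the C-methyltransferase. Its controls were spread widely, at 178.5, 236.0, 267.0 and 200.4 CPM, while the knockouts held 157.4, 144.7, 153.9 and 148.9 CPM. The coefficient of variation was 17.7% in controls and 3.68% in knockouts. Coq5 fell by 0.54 (SE 0.118, edgeR adjusted p = 0.00789). The call ended when the muscle score entered the fit (log2 fold change -0.45, edgeR adjusted p = 0.0615) and with library sizes alone (-0.35, edgeR adjusted p = 0.0532).

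Coq6 (chromosome 12, 84361968 to 84373796, plus strand) and Coq7 (chromosome 7, 118525062 to 118533313, minus strand) encode hydroxylases of the ring. Coq6 was at 230.4, 265.9, 265.5 and 250.7 CPM in the controls and at 172.1, 174.5, 199.5 and 205.4 CPM in the knockouts. Its knockout libraries formed a lower pair (512 and 513) and a higher pair (515 and 516), both below the controls. Coq6 fell by 0.43 (SE 0.084, edgeR adjusted p = 0.00502), a call that ended with library sizes alone (-0.23, edgeR adjusted p = 0.0702). In GENCODE models 7.19% of its exon bases lie opposite Fam161b.

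Coq7 was at 102.3, 103.6, 112.9 and 110.9 CPM in the controls and at 73.0, 66.0, 77.6 and 73.9 CPM in the knockouts. The gap between the lowest control and the highest knockout library was wide relative to the spread within either group. Coq7 fell by 0.57 (SE 0.0699) and had the smallest adjusted p of the 10 genes, 0.000653 by edgeR. It was called under each of the 16 alternative fits tried, as were Coq3, Coq9 and Pdss1.

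Coq9 and Coq4 encode further proteins of the ring-modifying part of the pathway. COQ9 binds lipid and works with COQ7, and COQ4 takes part in the assembly of the complex. Coq9 (chromosome 8, 94838417 to 94854895, plus strand) was the most abundant of the 10 genes, at 617.5, 652.2, 707.7 and 684.8 CPM in the controls and 530.4, 475.1, 488.3 and 464.9 CPM in the knockouts. The groups did not overlap, and knockout 512 was highest of its group. Coq9 fell by 0.44 (SE 0.0745, edgeR adjusted p = 0.00252). In GENCODE models 2.12% of its exon bases lie opposite Ciapin1.

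Coq4 (chromosome 2, 29788263 to 29797743, plus strand) was not called. It was at 28.1, 24.4, 29.4 and 26.0 CPM in the controls and at 23.1, 24.5, 23.9 and 25.2 CPM in the knockouts. Control 514 lay within the range of the knockouts. The log2 fold change was -0.16, with a 95% interval from -0.34 to 0.02 (edgeR adjusted p = 0.15); its value was 0.04 with library sizes alone. The interval does not reach the fitted changes of the 7 called genes other than Coq2. In GENCODE models 8.29% of its exon bases lie opposite Trub2.

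The paralogs Coq10a and Coq10b encode proteins that bind coenzyme Q and are needed for its function in respiration rather than for its synthesis. Neither was called. Coq10a (chromosome 10, 128363097 to 128370037, minus strand) was at 215.3, 234.3, 214.9 and 220.6 CPM in the controls and at 220.6, 195.2, 184.7 and 173.0 CPM in the knockouts. Knockout 512 lay among the controls and the other knockouts lay below them. The log2 fold change was -0.19 (95% interval -0.38 to -0.01, edgeR adjusted p = 0.0986). Without knockout 512 the gene was called lower (-0.27, edgeR adjusted p = 0.0291), and with library sizes alone its log2 fold change was 0.003. Knockout 512 was also the library with the highest summed muscle markers. With the muscle score in the fit of all 8 libraries, the log2 fold change of Coq10a was -0.18 (edgeR adjusted p = 0.289). The part of muscle in the value of knockout 512 itself was not tested.

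Coq10b (chromosome 1, 55052770 to 55072702, plus strand) was at 47.5, 36.6, 40.7 and 36.3 CPM in the controls. The knockouts ran from 24.1 CPM in replicate 512 through 33.1 and 34.1 CPM in replicates 513 and 516 to 42.2 CPM in replicate 515. Its groups overlapped, and its coefficient of variation in knockouts, 22.1%, was the highest of the 10 genes. The log2 fold change was -0.27 (SE 0.16, 95% interval -0.63 to 0.09, edgeR adjusted p = 0.219), an interval that takes in both 0 and the changes of the called genes other than Coq3. In GENCODE models 12.8% of its exon bases lie opposite E330011M16Rik.

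Levels were compared between genes per length, as CPM per kilobase of the deposited transcript. In controls the order was Coq9 (397.6 ± 23.5, SD, n = 4), Coq6 (160.5 ± 10.6), Coq7 (125 ± 6.15), Coq5 (111 ± 19.7), Coq10a (88.7 ± 3.64), Coq2 (38.2 ± 1.14), Coq3 (24.1 ± 3.90), Coq10b (23.4 ± 3.03), Coq4 (13.7 ± 1.12) and Pdss1 (11.1 ± 1.34). Neighbours whose control libraries overlapped were Coq7 and Coq5, Coq5 and Coq10a, Coq3 and Coq10b, and Coq4 and Pdss1. The lipid-binding Coq9 was the most abundant and the tail enzyme Pdss1 had the lowest mean. In knockouts Coq10a (77.5 ± 8.14) stood above Coq5 (76.1 ± 2.80) and Coq10b (19.4 ± 4.29) above Coq3 (15.0 ± 0.762), but the libraries of both pairs overlapped.

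**Figure D2:**
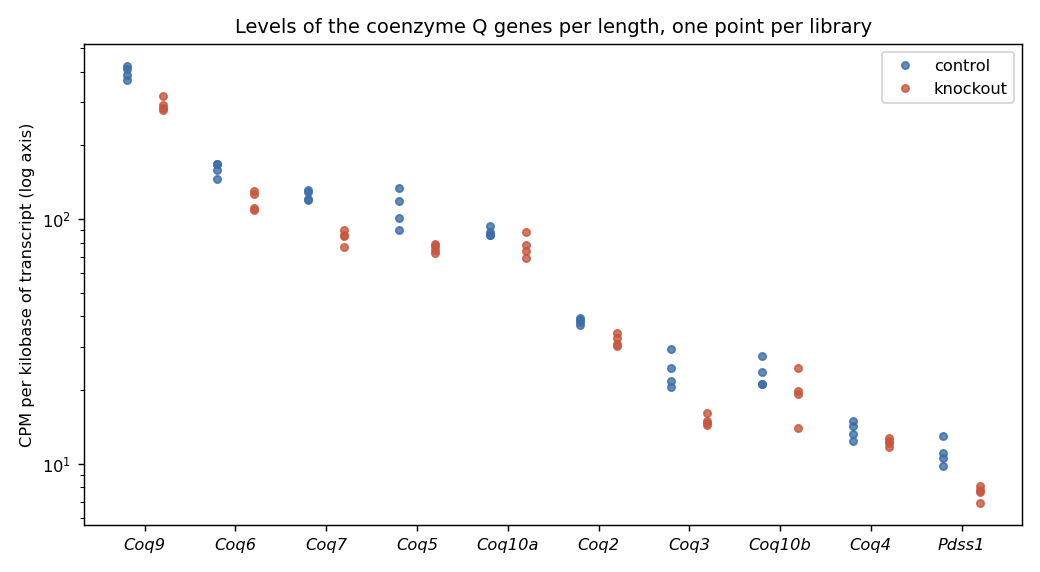
Levels of the 10 genes in CPM per kilobase of transcript (log axis), ordered by their control mean, with 1 point per library (blue, control; red, knockout). Coq9 is highest in both groups, at 397.6 in controls and 292.5 in knockouts, and Pdss1 lowest, at 11.1 and 7.61.

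Promoters of these genes are shown because 7 of the 10 fell together. RefSeq windows of 300 bases (250 before to 50 after a transcription start, build GRCm38.p6, the assembly of mm10) were found for 9 of the 10 genes, with 11 windows in all; the gene with none was Coq5. The windows held 6 to 39 CpG dinucleotides (median 22), against a median of 7 over all 32851 windows. Those 32851, also the background for the motifs below, were not limited to genes passing the filter on low counts, as these genes did. The windows of Coq10a differed most, with 29 at one start and 6 at the other. Printed 5′ to 3′ on the gene's strand are the 250 bases before the start of Pdss1, the least abundant gene (chr2:22895272-22895521, plus strand), of Coq7, with the smallest p (chr7:118533357-118533606, minus strand), and of Coq9, the most abundant (chr8:94838163-94838412, plus strand). Capitals mark matches to the motifs named in the next paragraph.
Pdss1: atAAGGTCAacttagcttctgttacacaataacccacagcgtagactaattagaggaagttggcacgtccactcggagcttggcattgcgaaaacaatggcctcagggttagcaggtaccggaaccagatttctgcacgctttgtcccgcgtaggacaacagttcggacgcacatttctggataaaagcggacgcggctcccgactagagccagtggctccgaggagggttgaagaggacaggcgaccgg
Coq7: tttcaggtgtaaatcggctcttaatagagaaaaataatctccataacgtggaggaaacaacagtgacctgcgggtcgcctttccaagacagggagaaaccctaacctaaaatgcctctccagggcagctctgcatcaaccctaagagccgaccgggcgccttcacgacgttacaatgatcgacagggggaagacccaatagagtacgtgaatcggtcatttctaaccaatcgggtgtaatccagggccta
Coq9: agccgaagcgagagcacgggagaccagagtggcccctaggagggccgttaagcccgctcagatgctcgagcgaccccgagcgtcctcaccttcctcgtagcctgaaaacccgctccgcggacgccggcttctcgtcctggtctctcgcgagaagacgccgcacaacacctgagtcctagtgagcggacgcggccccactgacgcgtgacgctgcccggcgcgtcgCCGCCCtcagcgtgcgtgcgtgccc

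Motifs of factors known from promoters of mitochondrial genes were searched on both strands of all windows. The core of the NRF1 motif, TGCGCA, was found for 2 of the 9 genes (Coq2 and, across the start, Coq3) and in 7.76% of all windows. The ETS motif CCGGAAG was found for 2 genes (Coq6 and Pdss1), in both past the start, and in 8.86% of all windows. The ERR motif AAGGTCA was found for 2 genes (Pdss1, printed above, and Coq10a) and in 4.72% of windows. The YY1 motif ATGGCGG was found for 1 gene (Coq9, past the start) and in 4.05%, and the GC box GGGCGG for 3 genes (Coq3, Coq6 and Coq9) and in 35.7%. A CRE motif was found for 0 of the 9 genes and in 1.79% of windows. Longer forms of the NRF1 and YY1 motifs were each found for 1 of the 9 genes (in 4.6% and 1.4% of windows), and longer forms of the ETS and ERR motifs for 0 (in 3.89% and 0.423%). The short forms were chosen after the longer ones had been searched, so their matches are a description of these windows. The GC box of the Coq9 sequence is read on its opposite strand. Coq7, Coq4 and Coq10b held no match in these windows, which says only that these letters are not there. The start of the Coq4 window, after base 29787492, lies apart from that of the counted transcript, at 29788263. The Coq3 matches all belong to a start after base 21879852, inside the counted transcript, which begins at 21879675.

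Other genes of the pathway and its regulation were taken from a list of 14. Of the 14 tested, 4 fell, 1 rose and 9 did not pass, beside 18.9% of all genes called lower and 15.4% higher, with a median of -0.11 on the log2 scale. With library sizes alone the median was 0.09, 1 fell and 2 rose, beside 6.56% of all genes lower and 28.8% higher. With upper quartile factors 3 fell and 2 rose, beside 11.5% and 20.6%. Counts this near those shares are no result about the list. The median was -0.21 without control 511, -0.20 without knockout 512 and -0.18 without knockout 515. Pdss2 (chromosome 10, 43221486 to 43440248), the partner of Pdss1 in tail synthesis, was at 29.2, 28.8, 32.2 and 27.5 CPM in the controls and 24.0, 21.5, 21.4 and 24.3 CPM in the knockouts. It fell by 0.37 (SE 0.0811, edgeR adjusted p = 0.0087), and the call ended with library sizes alone (-0.17, edgeR adjusted p = 0.127).

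Adck3 and Adck4 are the older symbols of Coq8a and Coq8b, atypical kinase-like proteins needed for coenzyme Q synthesis; Adck4 fell and Adck3 did not pass. Adck3 (chromosome 1, 180165238 to 180196020) was at 2406, 3638, 3151 and 3305 CPM in the controls and 3912, 3649, 3605 and 3931 CPM in the knockouts. Control 511 was low and control 514 reached the range of the knockouts. Per kilobase Adck3 stood at 782 ± 130 in controls, above each of the 10 genes. Its log2 fold change was 0.27 (95% interval -0.004 to 0.55, edgeR adjusted p = 0.113), which passed as higher with upper quartile factors (0.37, edgeR adjusted p = 0.0482) and with library sizes alone (0.47, edgeR adjusted p = 0.0245). Coq8a is known to be abundant in skeletal muscle as well as brown fat. With the muscle score in the fit its log2 fold change was 0.42 (edgeR adjusted p = 0.0797). In GENCODE models 8.98% of its exon bases lie opposite Cdc42bpa.

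Adck4 (chromosome 7, 27233013 to 27257949) was at 44.4, 52.7, 45.1 and 43.2 CPM in the controls and 33.0, 32.8, 37.2 and 33.0 CPM in the knockouts. It fell by 0.45 (SE 0.083, edgeR adjusted p = 0.00394) with no overlap between groups. In GENCODE models 14.4% of its exon bases lie opposite other gene models and 6.29% are shared with models on the same strand. Of the other kinase-like relatives, Adck5 rose by 0.64 (SE 0.103, edgeR adjusted p = 0.00208) from 6.06 ± 0.252 to 9.43 ± 0.691 CPM, while Adck1 and Adck2 had log2 fold changes of -0.23 and 0.02 and did not pass. Exon bases overlapped other models for 6.43% of Adck1 (opposite strand) and 13.8% of Adck2 (same strand).

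Ferredoxins pass electrons to COQ6. Fdx1 fell by 0.37 (edgeR adjusted p = 0.0271), a call that ended without control 517 or 518 and without knockout 512, 513 or 515 (edgeR adjusted p from 0.0629 to 0.0687), with upper quartile factors (0.0851) and with library sizes alone (0.273). Fdx1l, now named Fdx2, fell by 0.44 (edgeR adjusted p = 0.00728), but 100% of its exon bases are shared with overlapping gene models on the same strand and its counts are uncertain. That call ended with library sizes alone (0.0816). Fdxr, the reductase that feeds the ferredoxins, had a log2 fold change of 0.03.

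The regulators did not pass. Pptc7, a mitochondrial phosphatase, was at -0.15 on the log2 scale (21.2% of its exon bases lie opposite Rad9b), Stard7, a lipid transfer protein, at -0.19, and the protease gene Oma1 at -0.07. Hpd and Hpdl, dioxygenases related to the supply of the ring precursor, were at -0.03 and -0.05, with wide 95% intervals (-0.79 to 0.73 and -0.47 to 0.37). The call of Stard7 as lower appeared without control 511 (edgeR adjusted p = 0.0385), and that of Adck1 without control 518 (0.0232) and with limma-voom (adjusted p = 0.0183).

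**Figure D3:**
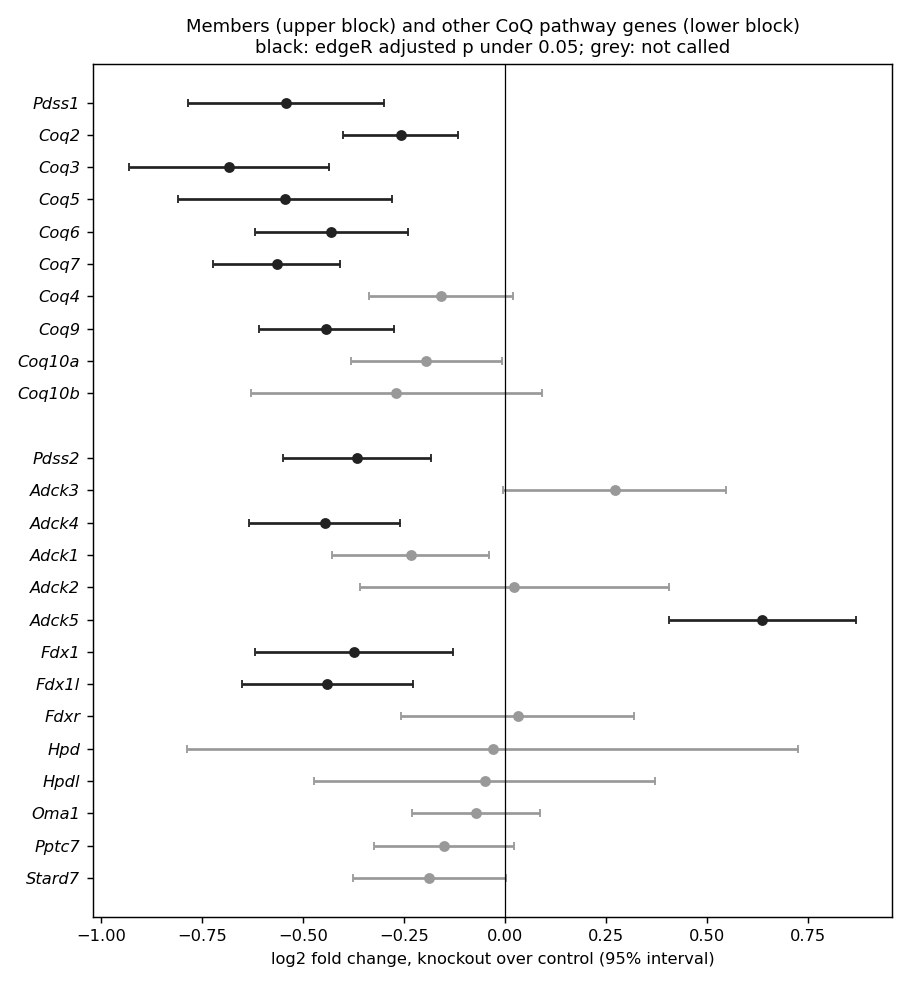
Log2 fold changes (horizontal axis, knockout over control) with 95% intervals for the 10 coenzyme Q genes and 14 other genes of the pathway, black where the edgeR adjusted p was under 0.05 and grey where it was not. In the upper block 7 of 10 points are black and left of 0, and in the lower block Adck5 is the single black point to the right, at 0.64.

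Ratios within a library do not depend on the scaling between libraries, so 4 pairs of genes were compared as log2 ratios of their counts by a two-sided exact permutation test over the 8 libraries. The smallest p this design allows is 0.0286, and p-values were adjusted over the 4 pairs. Coq8b to Coq8a (Adck4 to Adck3) was the pair that differed most, at -6.06 ± 0.212 (SD, n = 4) in controls and -6.79 ± 0.139 in knockouts. This difference of -0.73 had no overlap between groups and an exact p of 0.0286, but did not pass after adjustment (0.114), which a single pair at the smallest p cannot do here.

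The other ratios moved less. Coq7 to Coq9 was -2.63 ± 0.0273 in controls and -2.75 ± 0.116 in knockouts, a difference of -0.12 (exact p = 0.0857, adjusted 0.171). Its controls lay between -2.65 and -2.59, while knockouts 512 and 513 were at -2.86 and -2.85 and knockouts 515 and 516 at -2.65. Pdss1 to Pdss2 differed by -0.17 (exact p = 0.2, adjusted 0.267), and Coq10b to Coq10a by -0.09 (exact p = 0.829, adjusted 0.829). The knockout libraries of the last ratio were far apart, from -3.19 in replicate 512 to -2.13 in replicate 515.

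**Figure D4:**
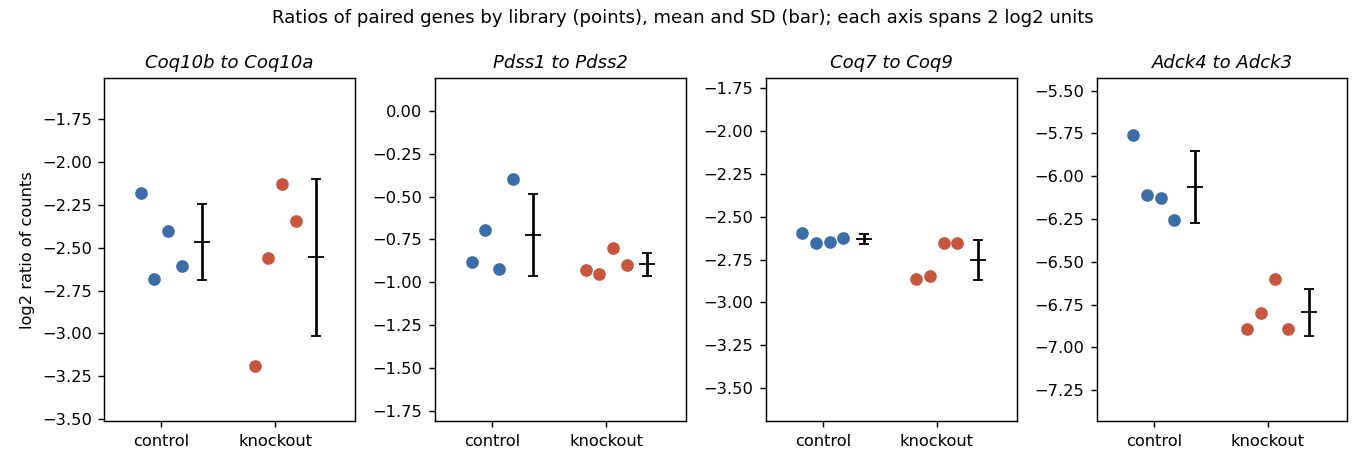
Log2 ratios of the counts of 4 gene pairs, with 1 point per library (blue, control; red, knockout) and the mean and SD as black bars; each vertical axis spans the same length in log2 units. Adck4 to Adck3 is the single pair with no overlap, at -6.06 in controls and -6.79 in knockouts.

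Precursors of the tail come from the mevalonate pathway. Of 11 genes of this pathway and its branches 7 fell, 0 rose and 4 did not pass (median -0.60), beside 18.9% of all genes called lower. Not all of the 11 supply the tail, and Fdft1, among the 7, belongs to the sterol branch. Acat2, which starts the pathway in the cytosol, fell by 0.61 (edgeR adjusted p = 0.0056), Mvd, the decarboxylase that makes isopentenyl diphosphate, fell by 0.91 (0.00777), Hmgcs1, the HMG-CoA synthase, fell by 0.60 (0.016), and Fdft1, which draws farnesyl diphosphate into sterols, fell by 0.47 (0.0217). Without a single knockout library 3 or 4 of the 11 were called lower (13.3% to 16% of all genes), while the median stayed between -0.66 and -0.53. Without a single control library 5 or 7 were called lower, beside 2291 to 2655 of the 14342 to 14363 genes tested. The medians then ran from -0.64 to -0.46, the last without control 511. With the muscle score 2 were called (13% of all genes) at a median of -0.63. With upper quartile factors 3 were called (11.5% of all genes) at a median of -0.50, and with library sizes alone 2 (6.56%) at -0.40.

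Enzymes that feed electrons to coenzyme Q, and the flavoprotein before one of them, were mostly lower, with 9 of 14 fallen and 1 risen (median -0.31), beside 18.9% and 15.4% of all genes. Etfdh, which passes electrons from fatty acid oxidation to the carrier, fell by 0.85 (SE 0.126, edgeR adjusted p = 0.00147). Its controls held 1006, 1106, 1417 and 1480 CPM and its knockouts 687, 671, 705 and 722 CPM, with no overlap. Chdh, choline dehydrogenase, fell by 1.38 (edgeR adjusted p = 0.000285) and Sdhd, a membrane subunit of complex II, fell by 0.53 (0.000745). Nqo1, a cytosolic quinone reductase, was the member that rose, by 1.35 (edgeR adjusted p = 0.000718), from a low level of 2.39 to 6.12 CPM. Of these 14 genes 5 were called lower without knockout 512 (median -0.29, 16% of all genes called lower), without knockout 513 (-0.31, 13.3%) or with the muscle covariate (-0.29, 13%). The median moved little in these fits, but more with other scaling. With upper quartile factors 5 were called at a median of -0.21 (11.5% of all genes), and with library sizes alone 4 at -0.11 (6.56%).

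Complex III, which takes electrons from reduced coenzyme Q, was lower in nearly all its genes. Of 14 subunit and assembly genes 13 fell and 0 rose (median -0.42), beside 18.9% of all genes called lower. Uqcrb fell by 0.51 (edgeR adjusted p = 0.000803), Uqcr10 by 0.46 (0.00122), Uqcr11 by 0.46 (0.00147) and the assembly factor Uqcc1 by 0.43 (0.00151). The gene that did not pass was the assembly factor Uqcc2, named after its value was seen, with a log2 fold change of -0.13. With library sizes alone 8 of the 14 were called lower (median -0.22), beside 6.56% of all genes. The median of the coenzyme Q genes, -0.44, lay beside that of complex III, and the difference between these lists was not tested.

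**Figure D5:**
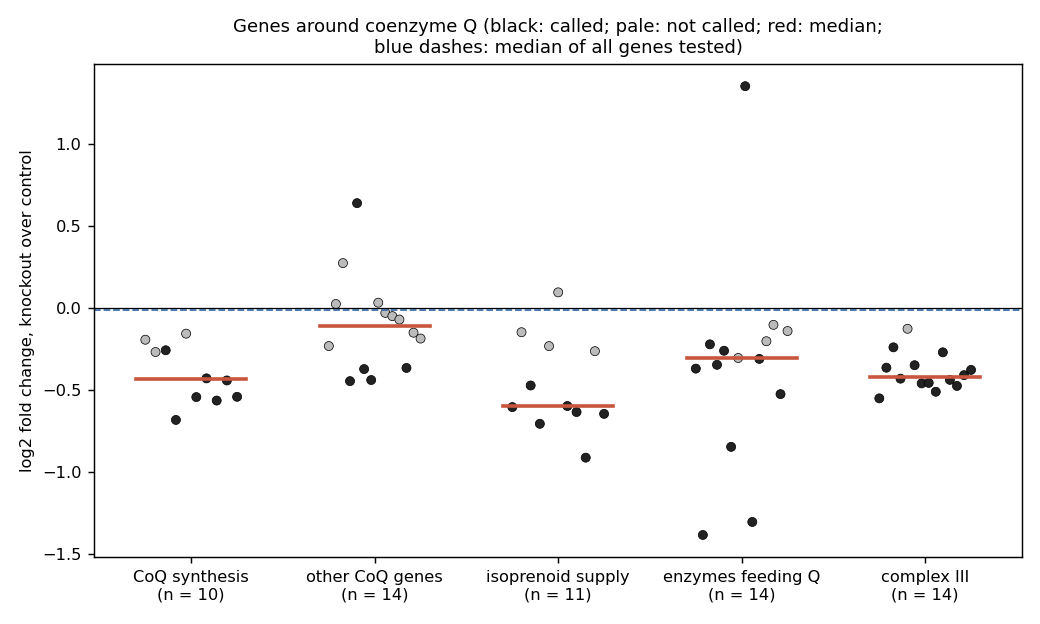
Log2 fold changes (vertical axis, knockout over control) of genes in 5 lists around coenzyme Q, with 1 point per gene, black where the edgeR adjusted p was under 0.05; red bars are list medians and the blue dashes the median of all genes tested. List medians run from -0.60 (isoprenoid supply) to -0.11 (other coenzyme Q genes), beside -0.01 for all genes.

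The genes most like Coq7 in their pattern over the 8 libraries were Mrpl44, a mitochondrial ribosomal protein gene, Nr2f6, an orphan nuclear receptor gene, and Mcts1. Likeness was the root mean square difference in centred log2 CPM, which was 0.0377, 0.0424 and 0.047 for these among 10638 genes that averaged 5 CPM or more. Their log2 fold changes were -0.59, -0.55 and -0.51, near that of Coq7 because likeness over the 8 libraries includes the group difference.

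Of the 10 genes, 6 had in the authors' deposited table an FDR under 0.05 and a negative log2 fold change, where 8.15% of all transcripts did. That share is over all 30521 deposited transcripts, and the 18.9% above is over the 14178 genes that passed the filter on low counts. These were Coq3 (FDR 2.72e-05 in the authors' deposited table), Coq7, Coq5, Pdss1, Coq9 and Coq6. Coq2, called here, had a log2 fold change of -0.28 and an FDR of 0.131 in the authors' deposited table.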

How the data were processed

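Total RNA of brown adipose tissue was sequenced, and reads were aligned to mm10 with TopHat2 and counted with HOMER, per the submitters' processing notes. Expected counts deposited by the authors are unadjusted sums over RefSeq exons on both strands in steps of 0.5, per the file headers; 36.9% of values were not whole and were rounded. The 829 rows with no symbol (0.0608% to 0.0824% of counts) were left out, and the row with the highest total stood for a symbol. The authors' deposited table also holds a signal (counts scaled to equal totals), the authors' fold (ratio), p-value and log2 columns, per the file headers; its log2 fold change and FDR were read.

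Genes passing filterByExpr (minimum count 10) entered the quasi-likelihood test of edgeR 4.0.16 (R 4.3.3), TMM factors (0.898 to 0.961 in controls, 1.05 to 1.10 in knockouts), two-sided, Benjamini-Hochberg adjustment over 14178 genes, threshold 0.05. SE is the log2 fold change over the root of F, and 95% intervals use it. limma 3.58.1 and DESeq2 1.42.0 were alternatives. Exon overlap was read from GENCODE M21 models. The test was tested on simulated counts. The members and lists were chosen with earlier results of these data known, and the short motif forms after longer ones had matched at most 1 gene each. A first motif search of only the 250 bases before the start, with the longer forms, matched no coenzyme Q gene; the window was then widened to 300 bases. One gene of the pathway list is not reported here, and the list was counted without it. All members, the target, the 14 pathway genes and the 4 smallest p of each other list are named, with up to 2 called genes against the list's majority.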

Additional observations from a re-analysis of the deposited data

Results flagged for a closer look

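Of 58 groups of 4 libraries checked for a library far from the others (the 10 coenzyme Q genes, the 14 other pathway genes, Kdm1a and the 4 ratios), 1 stood out. Adck4 was at 37.2 CPM in knockout replicate 515 and at 32.8 to 33.0 CPM in the other knockouts, a gap of 0.934 of the group's range where 0.829 is the critical value. Chance gives about 1 in 20 such groups. The fall of Adck4 was called with and without that library.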

How the results depend on the processing

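In all, 16 alternative fits were run. No paired analysis was possible because the groups share no replicate numbers. Counts of genes called lower over all genes were 2682, but 1625 with upper quartile factors and 930 with library sizes alone; counts higher were 2189, but 2915 with upper quartile factors, 4077 with library sizes alone and 1440 with the muscle score added. With library sizes alone 4 coenzyme Q genes were lower, 1 other pathway gene lower and 2 higher, and 2 isoprenoid, 4 electron-feeding and 8 complex III genes lower. The median of the other pathway genes was then 0.0856 in place of -0.112. With upper quartile factors 2 other pathway genes were higher, and 3 isoprenoid and 5 electron-feeding genes lower. With the muscle score added the latter counts were 2 and 5, beside 13% of all genes called lower. Leaving out 1 library gave 3 to 7 isoprenoid, 5 to 9 electron-feeding and 7 to 8 coenzyme Q genes lower. Over all genes, 1900 (without knockout 513, 13.3%) to 2655 (without control 511, of 14350 tested) were then called lower. No ratio of a gene pair passed under any setting run, but a single pair cannot pass after adjustment over 4. Depth limits genes of low level such as Nqo1 and Hpd, at 2.39 and 2.62 CPM in controls. Relative log expression factors, no filter, DESeq2, limma-voom and the longest transcript left 7 coenzyme Q genes lower. Beside these, 2500 to 2858 of the 14173 to 18232 genes tested were called lower.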
